A study of Homo sapiens with 8 samples.

Results

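*HBE1* encodes the embryonic ε-globin chain, and its long-range DNA interactions were described in HUDEP-2 cells, WT or BCL11A KO. The *HBE1* interval was chr11:5281588-5295474 (hg19), 13.887 kb that lie between the *HBG* bait and the locus control region (LCR) bait. It was not itself a bait and so was seen only from the other end of a captured pair. A pair of interacting ends was taken as a member when the midpoint of 1 end lay in this interval and the other end lay elsewhere in the β-globin locus, chr11:5222301-5323175. The positions of the ends were thus the values that chose the members. Of 4896 distinct pairs in both lists, 301 were members, with 194 of the 2966 WT pairs and 107 of the 2310 from BCL11A KO. Within 1 kb of the edge on the *HBG2* side, 8 pairs ended just inside the interval and 1 just outside it in each genotype. At the edge on the LCR side, these numbers were 23 and 26 in WT and 8 and 10 in BCL11A KO.

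The HUDEP-2 line consists of immortalized human erythroid progenitors, and CAPTURE-3C-seq recovers ligated DNA pairs from chosen baits by means of a biotinylated, inactive Cas9 and sgRNAs. Cells of both genotypes carried the tagged dCas9 and sgRNAs. The WT group had an intact *BCL11A* and the BCL11A KO group a knockout of it, and no treatment set the groups apart. The labels describe an expansion culture with SCF, EPO, dexamethasone and doxycycline, whereas the methods state that cells were collected after erythroid differentiation. Whether the knockout line was 1 clone is not given in the sources used here. The authors merged 3 biological replicates per genotype into 1 list of interactions, so no value below has a replicate error.

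The β-globin genes lie in the order of their use in development, with *HBE1* next to the LCR, followed by the fetal γ-globin genes *HBG2* and *HBG1* and then the adult genes *HBD* and *HBB*. The LCR, with its hypersensitive sites HS1 to HS5, is the distal enhancer that these genes share, and *HBE1* is normally silent in adult erythroid cells. BCL11A represses the γ-globin genes, and the region upstream of *HBD* (*HBD*-3.5kb) has been studied as an element that takes part in this silencing.

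On the minus strand, the canonical *HBE1* transcript covers chr11:5289575-5291175, with exon 1 at 5291029 to 5291175, exon 2 at 5290684 to 5290906 and exon 3 at 5289575 to 5289827 (GENCODE on GRCh37, the same build). The interval was split at this transcript into the *HBG2*-*HBE1* gap of 7.987 kb, the transcript of 1.601 kb and the 4.299 kb upstream of *HBE1*. The upstream part is outside the canonical transcript but lies within longer annotated *HBE1* transcripts, whose gene span reaches 5526882. Below, positions are distances from the *HBE1* transcription start site, positive upstream towards the LCR.

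Each listed end is 42 bp long, and in the interval 27 of 261 distinct ends met a GATC exactly, against at most 4 when the ends were shifted by up to 4 bp. The single ends with the most members in either list are shown as examples of where in the interval interactions were read. All are given on the plus strand with the GATC at the border of the fragment in capitals. The first carries 18 bp of exon 2, and the other 5 lie upstream of *HBE1*.
exon 2 end, chr11:5290660-5290701: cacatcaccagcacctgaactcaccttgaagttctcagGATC
end at 1.01 kb, chr11:5292166-5292207: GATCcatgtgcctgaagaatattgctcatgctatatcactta
end at 1.54 kb, chr11:5292699-5292740: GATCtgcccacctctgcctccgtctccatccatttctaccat
end at 2.25 kb, chr11:5293401-5293442: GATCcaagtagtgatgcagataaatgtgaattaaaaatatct
end at 2.60 kb, chr11:5293754-5293795: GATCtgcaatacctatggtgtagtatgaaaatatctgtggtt
end at 2.87 kb, chr11:5294023-5294064: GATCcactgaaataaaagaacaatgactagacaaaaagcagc

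The end at 2.87 kb was used most, by 5 members in WT and 3 in BCL11A KO. In WT, 4 of its 5 partners lay in the LCR bait and 1 in the *HBD*-3.5kb bait, and in BCL11A KO all 3 lay in the LCR. The end at 2.60 kb had 4 members in WT and 1 in BCL11A KO, and that at 1.01 kb had 3 and 0. Conversely, the ends at 1.54 kb and 2.25 kb each had 1 member in WT and 3 in BCL11A KO, and these 3 had LCR partners. The exon 2 end had 3 members in WT and 1 in BCL11A KO. Most ends were used once, 159 of 173 in WT and 98 of 101 in BCL11A KO. No member pair was listed identically in both genotypes, and 13 interval ends were shared. Over all pairs 380 were listed in both, of 2966 in WT and 2310 in BCL11A KO. This background also holds pairs with both ends in the same bait, which cannot be members, and the difference was not tested.

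On the other side of the pairs, 3 partner ends stood out, which were chosen for display after their values were seen.
HS3 end, chr11:5305798-5305839: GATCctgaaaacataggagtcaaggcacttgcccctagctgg
end 1.67 kb upstream of *HBD*, chr11:5257363-5257404: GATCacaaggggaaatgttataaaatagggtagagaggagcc
end 2.05 kb upstream of *HBD*, chr11:5257743-5257784: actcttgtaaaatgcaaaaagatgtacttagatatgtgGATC
The HS3 end was the partner of 5 members in WT and 11 in BCL11A KO, and over all regions 62 and 78 pairs left the LCR bait from it. The end at 1.67 kb, outside the windows of the *HBD* sites, had 4 members in WT and 1 in BCL11A KO. The end at 2.05 kb, inside the 1-kb window centred at 2.5 kb, had 4 and 0. Both of these *HBD* ends stayed in use for other regions in BCL11A KO. From the end at 2.05 kb, pairs leaving the bait numbered 17 and 45 in the WT and BCL11A KO lists, and from the other 12 and 21.

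The lists behind these counts differed in size. The *HBD*-3.5kb bait (chr11:5255713-5261213) held 1782 WT and 1012 BCL11A KO pairs, the LCR bait (chr11:5295475-5313775) 1150 and 1216, the *HBB* bait (chr11:5246501-5250201) 171 and 108, and the *HBG* bait (chr11:5270187-5281587) 86 and 82. Shares are given of all pairs of a bait, with Wilson 95% intervals, and beside them of the pairs that left the bait, because 53.1% of WT and 26.4% of BCL11A KO pairs of *HBD*-3.5kb did so. A count of 3 pairs was taken as the smallest that can be told from 0. Ratios with fewer BCL11A KO pairs than that, but above 0, are printed as they are. Where BCL11A KO had no pair, the ratio is a bound that takes 3 pairs and is not a 95% limit. The intervals, like the two-sided Fisher's exact tests, cover counting error only and compare 2 merged lists. Listed pairs need not be independent molecules, so pairs that joined the same 2 fragments between GATC sites were also counted once.

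In WT the members were split almost evenly between 2 partners, and in BCL11A KO 1 of these was nearly gone. The *HBD*-3.5kb region was the partner of 95 WT members and 2 BCL11A KO members. The LCR was that of 91 and 103. *HBB* had 8 and 2 members, and the *HBG* bait had none in either list. Every member had its other end in a bait.

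**Figure D1:**
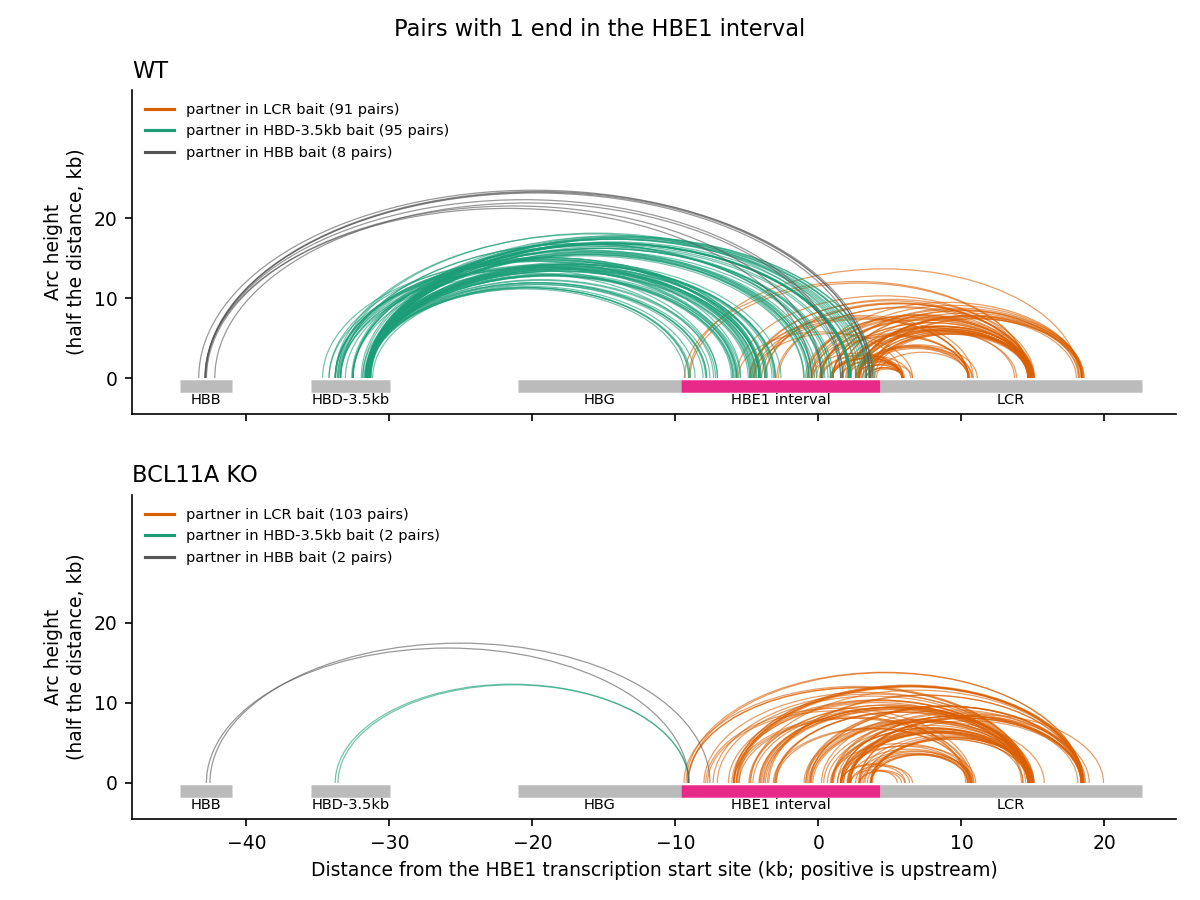
Arcs join both ends of each of the 194 WT (top) and 107 BCL11A KO (bottom) members, plotted by distance from the *HBE1* transcription start site in kb, with arc height as the distance divided by 2 and colour as the partner bait. The bundle between the *HBD*-3.5kb bait and the *HBE1* interval has 95 arcs in WT and 2 in BCL11A KO, while the bundle to the LCR has 91 and 103.

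With the *HBD*-3.5kb bait, the *HBE1* interval received 5.33% of the WT pairs (95% interval 4.38 to 6.47), but 0.198% of the BCL11A KO pairs (0.0542 to 0.718). BCL11A KO over WT gave a ratio of 0.0371 (exact 95% interval 0.00443 to 0.138; Fisher's exact test, adjusted p = 3.93e-15 over 32 tests of a bait and a region). Of these 32 tests, 43.8% passed the threshold of an adjusted p of 0.05, 34.4% as lower in BCL11A KO and 9.38% as higher. Of the pairs that left the bait, 10.0% (8.28 to 12.1) reached it in WT, compared with 0.749% (0.206 to 2.69) after the knockout, a ratio of 0.0747 (0.00891 to 0.277; Fisher's exact test, adjusted p = 3.52e-07). Of the tests with this denominator, 25% were called lower. Counted as pairs of GATC fragments, 45 were left in WT and 2 in BCL11A KO, a ratio of 0.112 (Fisher's exact test, adjusted p = 0.00114). Both remaining pairs lay at −9.06 and −9.08 kb, near the *HBG* bait, and none of them touched *HBE1* or its upstream region. A count of 2 is below the floor of 3 pairs, so the point ratios of this bait are uncertain.

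The LCR bait gave another picture. It joined 7.91% of its WT pairs (6.49 to 9.62) to the *HBE1* interval, and 8.47% of its BCL11A KO pairs (7.03 to 10.2). The ratio was 1.07, with an exact 95% interval of 0.80 to 1.44 (Fisher's exact test, adjusted p = 0.774). Of the pairs leaving the LCR bait the shares were 10.4% and 11.7% (ratio 1.12, 0.838 to 1.5; Fisher's exact test, adjusted p = 0.561).

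*HBB*, the adult β-globin gene, reached the interval with 8 of 171 WT pairs (4.68%, 2.39 to 8.96) and 2 of 108 BCL11A KO pairs (1.85%, 0.509 to 6.50), which did not pass the threshold (ratio 0.396, exact 95% interval 0.0409 to 1.98; Fisher's exact test, adjusted p = 0.473). In WT 7 of these 8 pairs lay upstream of *HBE1* and 1 in its transcript, and 7 of the 8 *HBB* ends lay within 0.5 kb of the *HBB* start site. Both BCL11A KO pairs lay in the *HBG2*-*HBE1* gap, at −7.59 and −9.06 kb. No pair joined the *HBG* bait to the interval next to it. With 86 and 82 pairs in its lists, a floor of 3 pairs is a share of 3.49% in WT and 3.66% in BCL11A KO, and the Wilson upper limits are 4.28% and 4.48%. Of the pairs leaving the *HBG* bait, 0 of 60 in WT and 0 of 38 in BCL11A KO reached the interval, with upper limits of 6.02% and 9.18%. In the *HBG* bait 17.5% of all 42-bp stretches occur again on chromosome 11, where reads are not kept because they do not align to 1 place, against 5.42% in the *HBE1* interval. The part of this in the missing pairs was not tested.

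**Figure D2:**
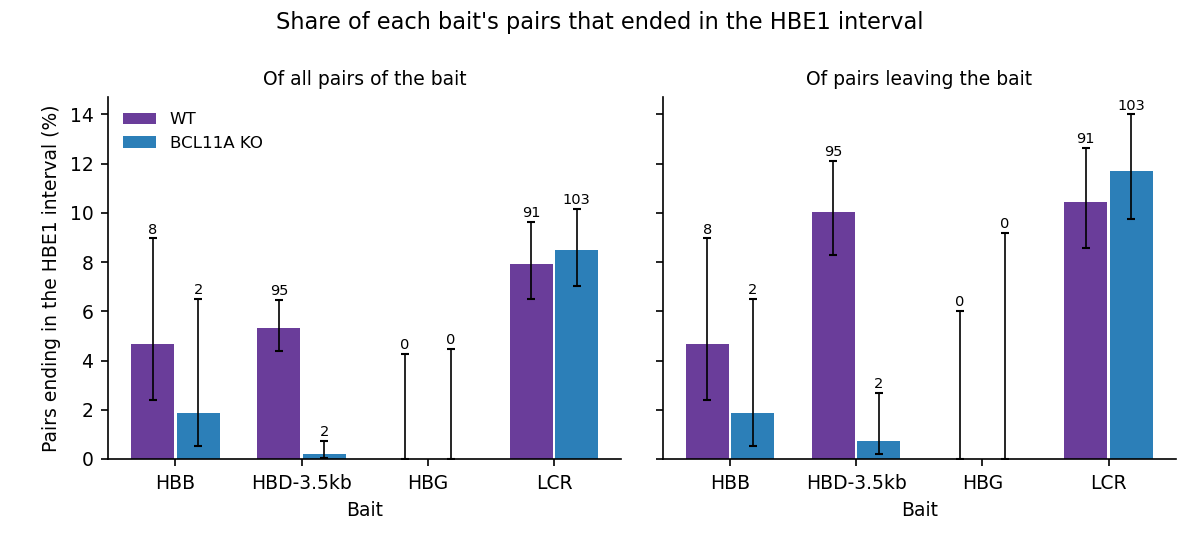
Bars give the percentage of each bait's pairs that ended in the *HBE1* interval in WT and BCL11A KO, of all pairs of the bait (left) and of the pairs leaving it (right); error bars are Wilson 95% intervals and the numbers above them are pair counts. With the *HBD*-3.5kb bait the intervals of both genotypes do not overlap in either panel, and with the LCR bait they do in both.

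Whether the *HBE1* interval changed differently from the captured regions was tested by setting its WT and BCL11A KO counts against those of another region from the same bait, with adjustment over 7 comparisons. From the *HBD*-3.5kb bait, the *HBG* region received 81 WT and 20 BCL11A KO pairs, and the LCR 128 and 46. As shares of all pairs of the bait, both were lower in BCL11A KO, with a ratio of 0.435 at *HBG* (adjusted p = 0.00119 by Fisher's exact test) and 0.633 at the LCR (adjusted p = 0.0161 by Fisher's exact test). Divided instead by pairs that left the bait, which went from 947 to 267, neither region passed the threshold and the direction at the LCR turned. *HBG* had 8.55% in WT and 7.49% in BCL11A KO (ratio 0.876; adjusted p = 0.837 by Fisher's exact test), and the LCR had 13.5% and 17.2% (ratio 1.27; adjusted p = 0.245 by Fisher's exact test). The comparison of 2 regions does not depend on the denominator. It is given as the BCL11A KO over WT ratio at *HBE1* divided by that at the other region, so that a value under 1 means a lower ratio at *HBE1*. This was 0.0853 against *HBG* (95% interval 0.00948 to 0.372; Fisher's exact test, adjusted p = 0.000127) and 0.0586 against the LCR (0.00677 to 0.235; adjusted p = 2.35e-07 by Fisher's exact test). The interval lies between these 2 regions. In WT the *HBD*-3.5kb bait had 6.84 pairs per kb of the *HBE1* interval (exact Poisson 95% interval 5.53 to 8.36), 7.10 per kb of the *HBG* region (5.64 to 8.83) and 6.99 per kb of the LCR (5.84 to 8.32), and these intervals overlapped. In BCL11A KO these levels were 0.144 (0.0174 to 0.520), 1.75 (1.07 to 2.71) and 2.51 (1.84 to 3.35) pairs per kb. The 95% interval of *HBE1* did not overlap the other 2. *HBG* and the LCR were captured themselves and *HBE1* was not, so capture and contact cannot be told apart in these levels. The stretch between the *HBD*-3.5kb and *HBG* baits, not captured either, had 15.5 pairs per kb in WT. In BCL11A KO it had 2.23 (1.36 to 3.44), which did not overlap *HBE1*.

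Regions that were not baits were compared in the same way, with every region of the locus adjusted over 21 comparisons, a step added after the data were seen. From the *HBD*-3.5kb bait, the region closest to *HBE1* in its change was the uncaptured stretch between the *HBD*-3.5kb and *HBG* baits, with 139 WT and 20 BCL11A KO pairs. The ratio at *HBE1* divided by that of the stretch was 0.146 (Fisher's exact test, adjusted p = 0.00602). Divided by that of the sequence beyond the LCR, with 24 and 4 pairs, it was 0.126 (Fisher's exact test, adjusted p = 0.0428). Counted as pairs of GATC fragments, these 2 comparisons gave 0.181 and 0.252 and did not pass the threshold (adjusted p = 0.0734 and 0.321 by the same exact test). That stretch had, with the LCR bait, 44 WT and 74 BCL11A KO pairs, and the comparison with *HBE1* did not pass (0.673; adjusted p = 0.163 by Fisher's exact test).

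Seen with the LCR bait, *HBE1* stood between regions that gained and regions that lost. The *HBG* region went from 55 pairs in WT to 122 in BCL11A KO, and the ratio at *HBE1* divided by that at *HBG* was 0.510 (0.326 to 0.798; Fisher's exact test, adjusted p = 0.00286). The *HBD*-3.5kb region went from 95 to 41 pairs and *HBB* from 58 to 23, and the ratio at *HBE1* divided by theirs was 2.62 (1.61 to 4.29; adjusted p = 0.000127 by Fisher's exact test) and 2.85 (1.58 to 5.24; adjusted p = 0.000334 by Fisher's exact test). Counted as pairs of GATC fragments, these 3 comparisons kept their direction but none passed the threshold, with values of 0.710, 2.02 and 2.07 (adjusted p = 0.363, 0.0571 and 0.0761 by Fisher's exact test). The comparisons of the *HBD*-3.5kb bait with the LCR and *HBG* passed it in that setting. With the *HBB* bait, neither the comparison with the LCR (0.809, 0.0768 to 4.64; adjusted p = 1 by Fisher's exact test) nor that with *HBG* (0.50, 0.0331 to 6.13; adjusted p = 0.733 by Fisher's exact test) passed it.

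Per kb, the LCR bait had 6.55 pairs in the *HBE1* interval in WT (5.28 to 8.05). This was below the 17.3 of the *HBD*-3.5kb region (14 to 21.1) and the 15.7 of *HBB* (11.9 to 20.3), although both are farther from the LCR, and its interval overlapped those of the 4.82 of the *HBG* region (3.63 to 6.28) and of the 4.90 of the stretch between the *HBD*-3.5kb and *HBG* baits (3.56 to 6.58). In BCL11A KO the *HBE1* level was 7.42 (6.05 to 9.0), beside 10.7 for *HBG* (8.89 to 12.8), 8.25 for that stretch (6.48 to 10.4), 7.45 for *HBD*-3.5kb (5.35 to 10.1) and 6.21 for *HBB* (3.94 to 9.32), and neighbours in this order overlapped. The stretch from the *HBB* bait to *HBD*, not captured either, had 5.99 in WT (4.12 to 8.41) and 3.45 in BCL11A KO (2.08 to 5.38), where it lay below *HBE1*. *HBG*, *HBD*-3.5kb and *HBB* were captured themselves and *HBE1* was not, so capture and contact cannot be told apart in the order of the levels.

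**Figure D3:**
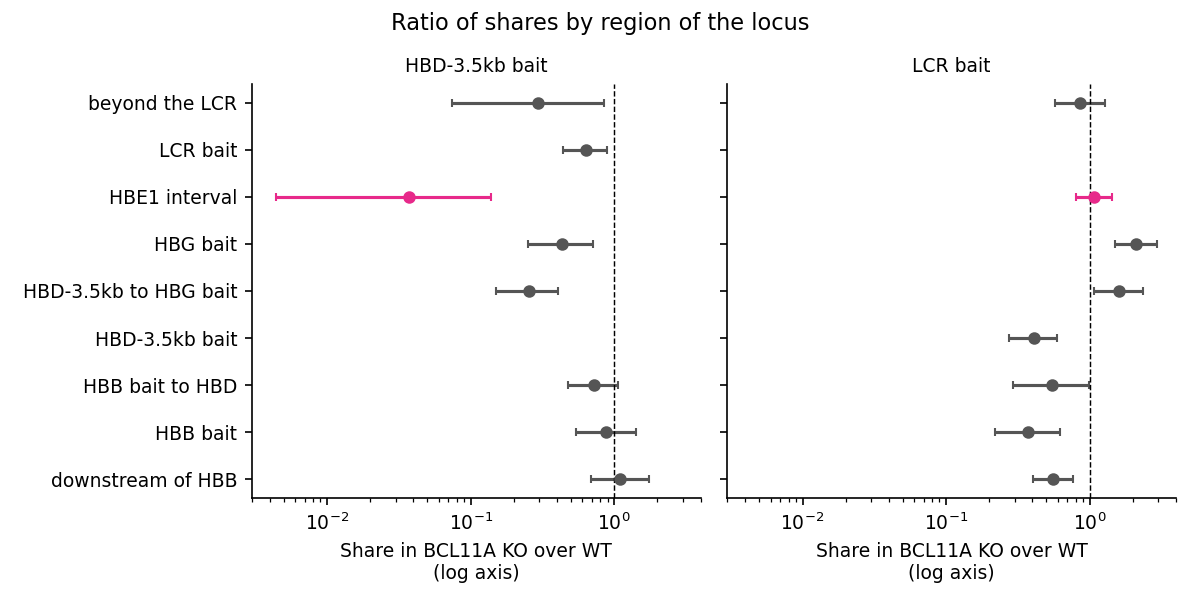
Points give the share of a bait's pairs in BCL11A KO divided by that in WT (log axis) for each region of the locus, with exact 95% intervals, for the *HBD*-3.5kb bait (left) and the LCR bait (right); the dashed line marks no change and the *HBE1* interval is coloured. *HBE1* has the lowest ratio of the *HBD*-3.5kb bait, 0.0371, and a ratio of 1.07 with the LCR bait.

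Among the members themselves, the LCR was the partner of 46.9% in WT (91 of 194, 40.0 to 53.9) and of 96.3% in BCL11A KO (103 of 107, 90.8 to 98.5; two-sided Fisher's exact test, p = 1.06e-20). The make-up also moves with the size of each bait's list. Over all regions, the LCR bait held 42.5% of the 2050 pairs leaving any of the 4 baits in WT and 68.1% of 1293 in BCL11A KO, where a pair that joins 2 baits counts for both. The difference between the members and this background was not tested. The make-up does not say whether 1 partner was lost or the other gained, which the shares by bait above address.

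Along the interval, WT pairs of the *HBD*-3.5kb bait had a like average per kb in the 3 parts, although single 1-kb bins up to 4 kb upstream ranged from 2 to 18 pairs, and those of the LCR bait were denser towards the LCR. The *HBD*-3.5kb bait had 55 WT pairs in the *HBG2*-*HBE1* gap (6.89 per kb), 10 in the *HBE1* transcript (6.25 per kb) and 30 upstream of it (6.98 per kb). In BCL11A KO only the gap had any, 2 pairs. The LCR bait had 17, 9 and 65 WT pairs in these parts (2.13, 5.62 and 15.1 per kb), and 41, 10 and 52 in BCL11A KO (5.13, 6.25 and 12.1 per kb). The gap thus held 18.7% of the LCR members in WT (12.0 to 27.9) and 39.8% in BCL11A KO (30.9 to 49.5).

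A test of these 3 parts was added after their counts were seen, with the whole tiling of the locus refitted and adjusted over 40 tests, of which 42.5% were called, 32.5% as lower in BCL11A KO and 10% as higher. From the LCR bait the gap rose (ratio 2.28, exact 95% interval 1.27 to 4.28; Fisher's exact test, adjusted p = 0.0106), while the transcript (ratio 1.05, 0.384 to 2.92; Fisher's exact test, adjusted p = 1) and the upstream part (0.757, 0.515 to 1.11; Fisher's exact test, adjusted p = 0.227) did not pass the threshold. The rise in the gap lost the call when pairs of GATC fragments were counted, with 13 WT and 23 BCL11A KO pairs (ratio 1.82, adjusted p = 0.242 by Fisher's exact test). From the *HBD*-3.5kb bait the gap fell to a ratio of 0.0640 (0.00757 to 0.243; Fisher's exact test, adjusted p = 8.69e-08). The upstream part fell to at most 0.176 (Fisher's exact test, adjusted p = 1.85e-05) and the transcript to at most 0.528 (Fisher's exact test, adjusted p = 0.0427), where BCL11A KO had no pair and the bound takes 3. The exact 95% upper limits of the ratios were 0.230 upstream and 0.786 in the transcript. The fall in the transcript did not pass as a share of the pairs leaving the bait, with the highest BF score, with ends at least 5 kb apart or with pairs of GATC fragments (adjusted p = 0.248, 0.0737, 0.286 and 0.832 by Fisher's exact test). Its bounds there were 1.06, 0.560, 1.04 and 1.89. Of the pairs leaving the bait, the upstream bound was 0.355 (adjusted p = 0.0049 by Fisher's exact test). With pairs of GATC fragments, neither the gap (ratio 0.194) nor the upstream part (at most 0.504) passed (adjusted p = 0.0946 for each by Fisher's exact test).

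In bins of 2 kb, of which 13.1% were called lower and 4.04% higher over all baits, 14 of 99 lay in the interval, 7 each for the *HBD*-3.5kb and LCR baits and 0 for *HBB*. For the *HBD*-3.5kb bait 3 of 7 bins were lower in BCL11A KO, beside 21.1% of the 38 bins tested for that bait over the whole locus. The bin 4 to 6 kb downstream of the *HBE1* start, in the gap, had 27 WT pairs and 0 in BCL11A KO, a ratio of at most 0.196 (Fisher's exact test, adjusted p = 0.000132). The bin 2 to 4 kb upstream had 20 and 0, a ratio of at most 0.264 (Fisher's exact test, adjusted p = 0.00277). The third, 2 to 4 kb downstream, had 12 and 0 (at most 0.440; Fisher's exact test, adjusted p = 0.0347) and is named although the rule for named bins stops at 2. As shares of the pairs leaving the bait, 1 of the 3 passed, the bin 4 to 6 kb downstream (adjusted p = 0.0171 by Fisher's exact test). With pairs of GATC fragments none did. Of the pairs leaving the bait, the bounds were looser, at 0.394, 0.532 and 0.887 in the order named, and all bounds take 3 pairs.

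For the LCR bait 0 of 7 bins were called by Fisher's exact test, beside 15.4% of its 39 bins over the locus (7.69% higher and 7.69% lower), and 1 had an unadjusted p-value under 0.05. That bin, 6 to 8 kb downstream, had 0 WT pairs and 6 from BCL11A KO (Fisher's exact test, adjusted p = 0.124). In it 19.7% of 42-bp stretches are repeated on chromosome 11, more than in the other 6 tested bins of that bait in the interval. The other LCR bins had 3, 9, 5 and 9 pairs in WT from the *HBG2* side up to the *HBE1* start, beside 6, 18, 11 and 10 in BCL11A KO. Upstream of the start they had 25 and 39 in WT, beside 22 and 30 in BCL11A KO. The bin with most members was that from 2 to 4 kb upstream in both lists, with 63 of 194 in WT and 30 of 107 in BCL11A KO.

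**Figure D4:**
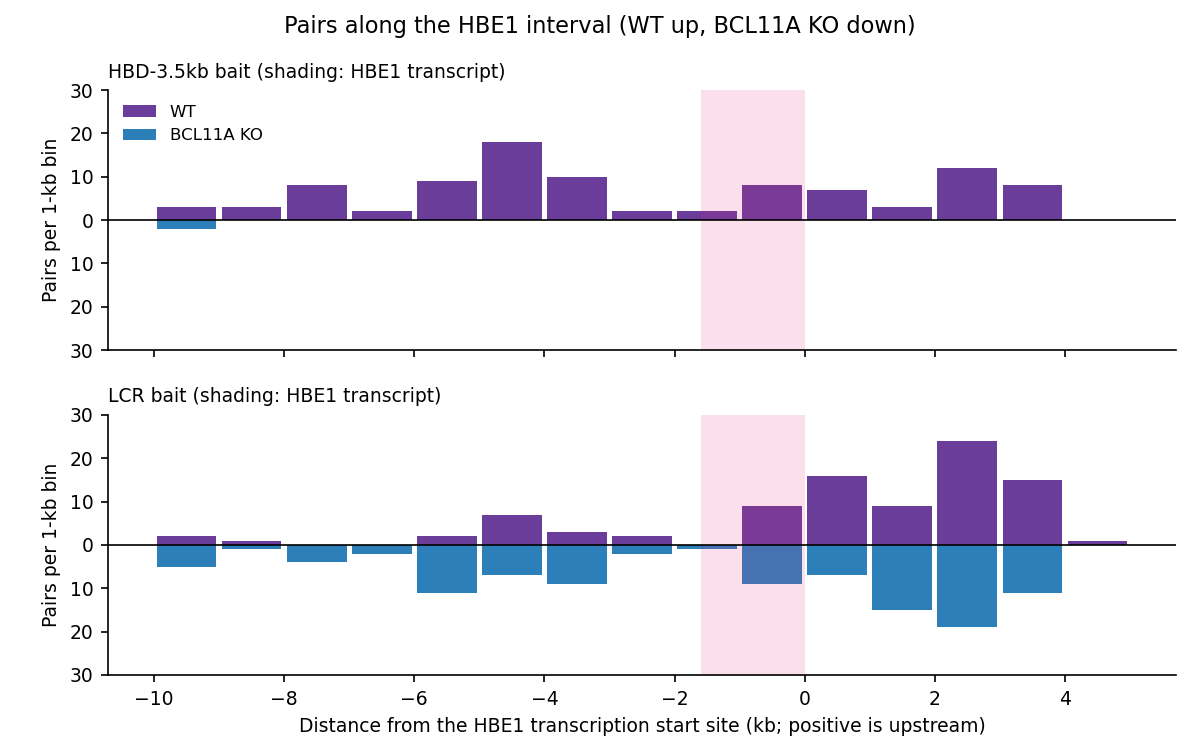
Bars count pairs per 1-kb bin by distance from the *HBE1* transcription start site, WT above and BCL11A KO below the line, for the *HBD*-3.5kb bait (top) and the LCR bait (bottom); shading marks the *HBE1* transcript. The *HBD*-3.5kb bait has pairs in every bin up to 4 kb upstream in WT and, in BCL11A KO, only the 2 pairs at the far downstream edge, whereas the LCR bait has its largest count from 2 to 3 kb upstream in both, 24 and 19.

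At the level of single fragments, 32 fragments between GATC sites touched the interval, of 16 to 2349 bp with a median of 265.5 bp. In WT 27 of them had a pair with the *HBD*-3.5kb region and 24 with the LCR, and 21 had both. In BCL11A KO 28 had a pair with the LCR, and these included each of the 27 that had met the *HBD*-3.5kb region in WT. The fragment with the *HBE1* start site (chr11:5290698-5291350, 653 bp) had 10 members in WT, 7 with the LCR and 3 with *HBD*-3.5kb, and 1 in BCL11A KO, with the LCR. Its upstream neighbour (chr11:5291351-5292165) had the most members in WT, 19, of which 11 joined the LCR, 7 *HBD*-3.5kb and 1 *HBB*. In BCL11A KO it had 7, all with the LCR. The fragment at chr11:5292773-5293370 had 17 members in WT and 12 in BCL11A KO, the most in that list. The fragment with most *HBD*-3.5kb pairs in WT lay in the gap (chr11:5286691-5287099), with 11 of them, and in BCL11A KO it had 2 members, both with the LCR. These fragments other than that of the start site were picked after their values were seen and are given without a test.

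Inside the LCR, the HS3 window received the most members in both genotypes. HS3 and HS2 are the sites best known for enhancer activity, while HS5 marks the outer end of the LCR and binds CTCF. In WT 41 of the 91 LCR members ended at HS3, 21 at HS1, 15 at HS4, 14 at HS2 and 0 at HS5. In BCL11A KO 50 of 103 ended at HS3, 27 at HS4, 18 at HS2, 6 at HS1 and 0 at HS5, and 2 lay outside these windows. HS1, the site nearest to *HBE1*, took 23.1% of LCR members in WT (15.6 to 32.7), and 5.83% in BCL11A KO (2.70 to 12.1). Its share of all pairs leaving the LCR bait moved likewise, from 9.98% to 3.18%. HS3 took 45.1% (35.2 to 55.3) and 48.5% (39.1 to 58.1) of LCR members, next to 43.5% and 48.6% of all pairs leaving the bait. HS4 took 16.5% (10.3 to 25.4) and 26.2% (18.7 to 35.5), next to 28.7% and 35.6%. These counts per site were not tested between the genotypes. From HS5, 27 and 15 pairs left the bait in all.

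**Figure D5:**
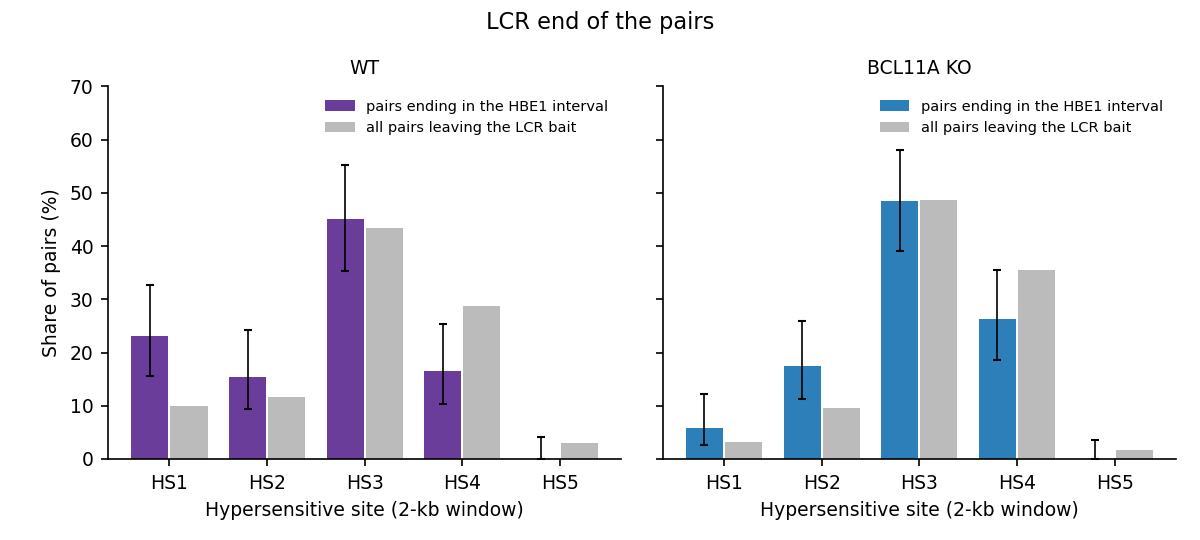
Coloured bars give the percentage of LCR members that ended in the 2-kb window of each hypersensitive site, with Wilson 95% intervals, and grey bars the percentage of all pairs leaving the LCR bait from that window, in WT (left) and BCL11A KO (right). HS3 has the tallest bars in both, and the HS1 bar of the members is 23.1% in WT and 5.83% in BCL11A KO.

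By part of the interval, 18 of the 21 WT members at HS1 and all 6 in BCL11A KO came from upstream of *HBE1*. At HS3, 26 WT members came from upstream, 5 from the transcript and 10 from the gap, and in BCL11A KO these were 21, 6 and 23. The distance between both ends of an LCR member had a median of 12.5 kb in WT and 16.3 kb in BCL11A KO, and 26 and 17 members spanned under 10 kb. *HBD*-3.5kb members spanned 22.3 to 36.2 kb in WT, with a median of 29.2 kb.

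Within the *HBD*-3.5kb bait, 51 of the 95 WT members ended in a 1-kb window centred 3.5 kb upstream of *HBD*, 12 in that at 2.5 kb, 3 in that at 1 kb and 29 outside the windows. The 3.5 kb window held 53.7% of these members (43.7 to 63.4) and 52.9% of all pairs leaving the bait in WT. Of its members, 31 reached the gap, 7 the *HBE1* transcript and 13 the upstream part. In BCL11A KO no member ended in a window, and both remaining pairs started outside them. With windows of double width, which overlap, both lay in those at 2.5 and 1 kb and neither in that at 3.5 kb. From the 3.5 kb window, pairs leaving the bait for any region went from 501 (52.9%) to 78 (29.2%), and from the 2.5 kb window from 97 (10.2%) to 84 (31.5%).

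Each pair carried a Bayes factor (BF) score, which the authors required to be at least 20 and which has 150 as its highest value. The highest score was held by 93.3% of members in WT (88.9 to 96.0) and 90.7% in BCL11A KO (83.6 to 94.8), beside 89.7% and 88.3% of all pairs. Of the *HBD*-3.5kb members in WT, 85 of 95 had it, and 88 of 91 LCR members. Both *HBD*-3.5kb members of BCL11A KO had it, whereas both *HBB* members of BCL11A KO scored 122. With only pairs of the highest score, the *HBD*-3.5kb bait had 85 members in WT and 2 in BCL11A KO, a ratio of 0.0395 (Fisher's exact test, adjusted p = 6.12e-14).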

How the data were processed

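CAPTURE-3C-seq was analysed from 2 merged lists, WT and BCL11A KO HUDEP-2. Per the labels, reads that aligned to exactly 1 place in hg19 were kept, and the submitters' processing notes name Bowtie2 2.2.8 and Picard. The authors merged 3 biological replicates per genotype, called interactions with their MAXIM software and kept those with a BF score of at least 20. The deposited values are the positions of both ends and a BF score. No read numbers are given, so depth is known only as numbers of pairs. The samples of single replicates were not analysed here.

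Mirrored and repeated lines were collapsed, which left 2966 pairs of 3195 in WT and 2310 of 2422 in BCL11A KO. Each file breaks into 4 unnamed sorted lists, and each was assigned to the bait in which 100% of its pairs had an end (next best at most 37.8%). Bait regions and hypersensitive sites were read by eye from a drawing of the locus, as distances from transcription start sites of GENCODE release 44 on GRCh37. Ends were placed by their midpoints. Deposited starts were read as 1-based, where 415 of 5800 distinct ends met a GATC.

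Pairs of each bait in 9 regions that tile the locus, and in 2-kb bins with at least 5 pairs, were compared between lists with two-sided Fisher's exact tests and Benjamini-Hochberg adjustment over all baits and regions (32) or bins (99), with 0.05 as the threshold. Ratios have 95% intervals from the exact binomial split of the counts. Single ends named are the 3 used by most members per list, with ties, and bins at most the 2 largest changes per bait and direction. Python 3.11.15, numpy 2.4.6 and scipy 1.17.1 were used. The tests were tried on lists drawn pair by pair from the WT lists, which treats pairs as independent and cannot check that assumption. Members, lists and tests were chosen with earlier results of these data known. Alternatives were other denominators, bins, filters and pair definitions.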

Additional observations from a re-analysis of the deposited data

How the results depend on the processing

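No paired analysis was possible because the files used here hold 1 merged list per genotype, and for this reason no replicate was left out in turn. The fall of the *HBD*-3.5kb bait in the *HBE1* interval passed the threshold under all 7 alternatives written down for it, with ratios of 0.0371 to 0.112, and the LCR bait under none of its 7, with ratios of 1.07 to 1.23. Split into its parts, which was added after seeing the data, the LCR ratio was 2.28 in the gap, now past the threshold, and turned to 0.757 upstream of *HBE1*. Of the 3 bins called in the interval, 1 was left when divided by pairs leaving the bait, 1 with those that also end in the locus, 1 with ends at least 5 kb apart, 0 with pairs of GATC fragments (of 12 tested) and 1 with 1-kb bins. Without the filter on pairs per bin 2 were called. Pairs of GATC fragments moved the LCR comparisons with *HBG*, *HBD*-3.5kb and *HBB* to 0.710, 2.02 and 2.07, all past the threshold no longer. This setting leaves smaller counts, and the cause of these moves was not tested. The *HBD*-3.5kb comparisons with *HBG* and the LCR and the change in partner passed under all 4 of their alternatives. Those with the uncaptured stretch next to *HBG* and the sequence beyond the LCR, added later, did not pass with pairs of GATC fragments. They gave 0.181 and 0.252 there (adjusted p = 0.0734 and 0.321 by Fisher's exact test). Windows of double width centred 3.5, 2.5 and then 1 kb upstream of *HBD* held 76, 23 and 13 WT members and 0, 2 and 2 in BCL11A KO, and overlap each other. With 1 list per genotype the numbers of pairs limit precision, and counting error is the only error known. How efficiently each bait was captured in each genotype is not known from the lists.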
